A study of Mus musculus with 2 samples.

Results

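Heat shock proteins and their partner chaperones were compared between Jam3-null and wild-type (WT) leukaemia-initiating cells. The set was defined by gene name, and it was chosen with earlier results of these data known. It held genes whose symbols start with Hspa, Hspb, Hspd, Hspe, Hsph, Hsp90a, Dnaja, Dnajb or Dnajc, the Cct genes, and Tcp1, Hsf1, Hsf2, Trap1, Bag1, Bag3 and Stip1, without the endoplasmic reticulum genes Hspa5, Dnajb9, Dnajb11 and Dnajc3. This gave 85 of 27338 genes on the array, represented by 156 probes in 174 of 43379 non-control spots. The names do not keep strictly to cytosolic chaperones: 9 of the 85 were grouped as mitochondrial and 6 as endoplasmic reticulum proteins. Neither group is taken to be complete. Hspbp1 and Hspbap1 share the Hspb prefix but are not small heat shock proteins, and were placed with the cochaperones.

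The data were 2 one-colour Agilent arrays, 1 per genotype, of Cy3-labelled RNA amplified from total RNA. The Jam3-null array held Jam3-null leukaemia-initiating cells, and the WT array held the same kind of cells with intact Jam3, a gene for a junctional adhesion molecule. Both came from bone marrow of female mice with acute myeloid leukaemia driven by MLL-AF9 and marked with YFP, and were sorted as positive for Mac-1 and c-Kit. The label of each array names 3 mice. The labels do not say how their RNA was combined, and the spread between animals was not measured. In such bulk samples, fewer cells of a type and less RNA per cell cannot be told apart.

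Chaperones bind unfolded proteins and keep them from aggregating until they fold. Hsp70 works in cycles of ATP hydrolysis that J proteins (the Dnaj genes) start and nucleotide exchange factors end, and it hands many client proteins to Hsp90, which holds kinases and receptors in a form ready for activity. The CCT ring in the cytosol folds actin and tubulin, Hsp60 with Hsp10 does similar work inside mitochondria, and heat shock factor 1 raises transcription of many of these genes after heat or other protein stress by binding inverted repeats of GAA, called heat shock elements.

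Promoter windows of the inducible Hsp70 genes and of the mitochondrial chaperonin are shown because these genes passed 2-fold in opposite directions in the results below. Each window runs from 250 bases before to 50 bases after the annotated start (RefSeq, GRCm38.p6), is written 5′ to 3′ on the strand of the gene, and has its heat shock element matches in capitals. The Hspa1a window is chr17:34972107-34972406 and the Hspa1b window is chr17:34959189-34959488, both on the minus strand. The Hspe1 window is chr1:55087898-55088197 on the plus strand.
Hspa1a: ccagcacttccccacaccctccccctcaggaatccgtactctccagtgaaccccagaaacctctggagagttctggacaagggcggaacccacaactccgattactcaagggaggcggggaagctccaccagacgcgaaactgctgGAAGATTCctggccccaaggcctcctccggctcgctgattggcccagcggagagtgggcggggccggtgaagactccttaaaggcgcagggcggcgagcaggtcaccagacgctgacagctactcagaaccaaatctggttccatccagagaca
Hspa1b: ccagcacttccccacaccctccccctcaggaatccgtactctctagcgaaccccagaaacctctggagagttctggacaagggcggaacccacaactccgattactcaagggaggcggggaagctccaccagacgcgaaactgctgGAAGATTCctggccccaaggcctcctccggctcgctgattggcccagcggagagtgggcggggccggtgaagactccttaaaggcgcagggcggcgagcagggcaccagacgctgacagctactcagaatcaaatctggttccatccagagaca
Hspe1: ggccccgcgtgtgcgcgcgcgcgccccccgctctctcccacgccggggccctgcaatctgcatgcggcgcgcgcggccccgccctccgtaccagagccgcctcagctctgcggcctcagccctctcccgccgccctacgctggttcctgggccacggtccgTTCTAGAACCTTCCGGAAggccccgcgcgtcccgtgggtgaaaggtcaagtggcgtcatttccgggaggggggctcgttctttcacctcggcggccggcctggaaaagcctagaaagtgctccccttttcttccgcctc

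The Hspa1a and Hspa1b windows were identical at 296 of 300 positions (98.7%). Each held 1 exact match to a pair of inverted GAA units, from position -104 to -97 relative to the start. Units with changed letters were not searched for. The Hspe1 window held a longer run of units, from position -89 to -72. Hspd1 lies head to head with Hspe1 on chromosome 1, and 1 of its 2 annotated windows overlaps the Hspe1 window by 285 bases, so that both genes share this run.

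A second pair of sequences shows what the array measured for 2 members that were lower on the Jam3-null array, Trap1 and Cct8. Each is a 60-base probe whose mm9 coordinates span an intron, so that it matches spliced RNA. The Trap1 probe covers chr16:4044692-4045495 and the Cct8 probe covers chr16:87485981-87486129, both on the minus strand. No letters are capitalised.
Trap1 probe: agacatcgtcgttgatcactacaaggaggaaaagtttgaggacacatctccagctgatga
Cct8 probe: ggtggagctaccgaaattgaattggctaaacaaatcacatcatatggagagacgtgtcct

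The files give processed signals, which are background-subtracted intensities. A difference below is the log2 value in Jam3-null cells minus that in WT cells, each array having been divided by its own 75th percentile. It is positive where Jam3-null cells were higher. The bracketed SD after a difference is the measurement error that the scanner software gives for the spots, with a median of 0.20 among the members. It covers neither animals nor repeated arrays. No p-value is given with 1 array per group. Signals of different probes are not comparable, and a single probe is set only against itself. A summed signal of a gene list adds the same probes on each array, before scaling and with those below the background mark. Its size rests mostly on the brightest probes.

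Spots well above background made up 55.0% of the Jam3-null array and 61.8% of the WT array. The median processed signal was 49.3 in Jam3-null cells and 51.6 in WT cells. Neither Jam3 probe was well above background on either array, with signals of 28.1 and 5.40 in Jam3-null cells and 5.09 and 3.23 in WT cells, so Jam3 gave no check of the labels. Of the genes used in the sort, Itgam (Mac-1) had a signal of 3703 in Jam3-null cells and 302 in WT cells, and Kit had 1237 in Jam3-null cells and 1244 in WT cells. Neutrophil maturation markers were higher on the Jam3-null array in 18 of 18 genes, with log2 differences between 1.56 and 6.63. Their summed signal was 1298060 in Jam3-null cells and 191113 in WT cells.

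Of the 85 chaperone genes, 67 were well above background on both arrays. More of them were lower than higher on the Jam3-null array: 46 (68.7%) lay below 0, beside 55.2% of 14347 genes measured on both arrays, and 21 lay above 0, beside 44.8%. The median difference was -0.28, and -0.07 over all measured genes. At least 2-fold lower were 12 members (17.9%), beside 8.64% of all measured genes. At least 2-fold higher were 3 members (4.48%), beside 10.3% of all measured genes. The lower genes included mitochondrial chaperones, the constitutive cytosolic Hsp90 gene and CCT subunits, and the higher ones were both stress-inducible Hsp70 genes and 1 J protein.

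**Figure D1:**
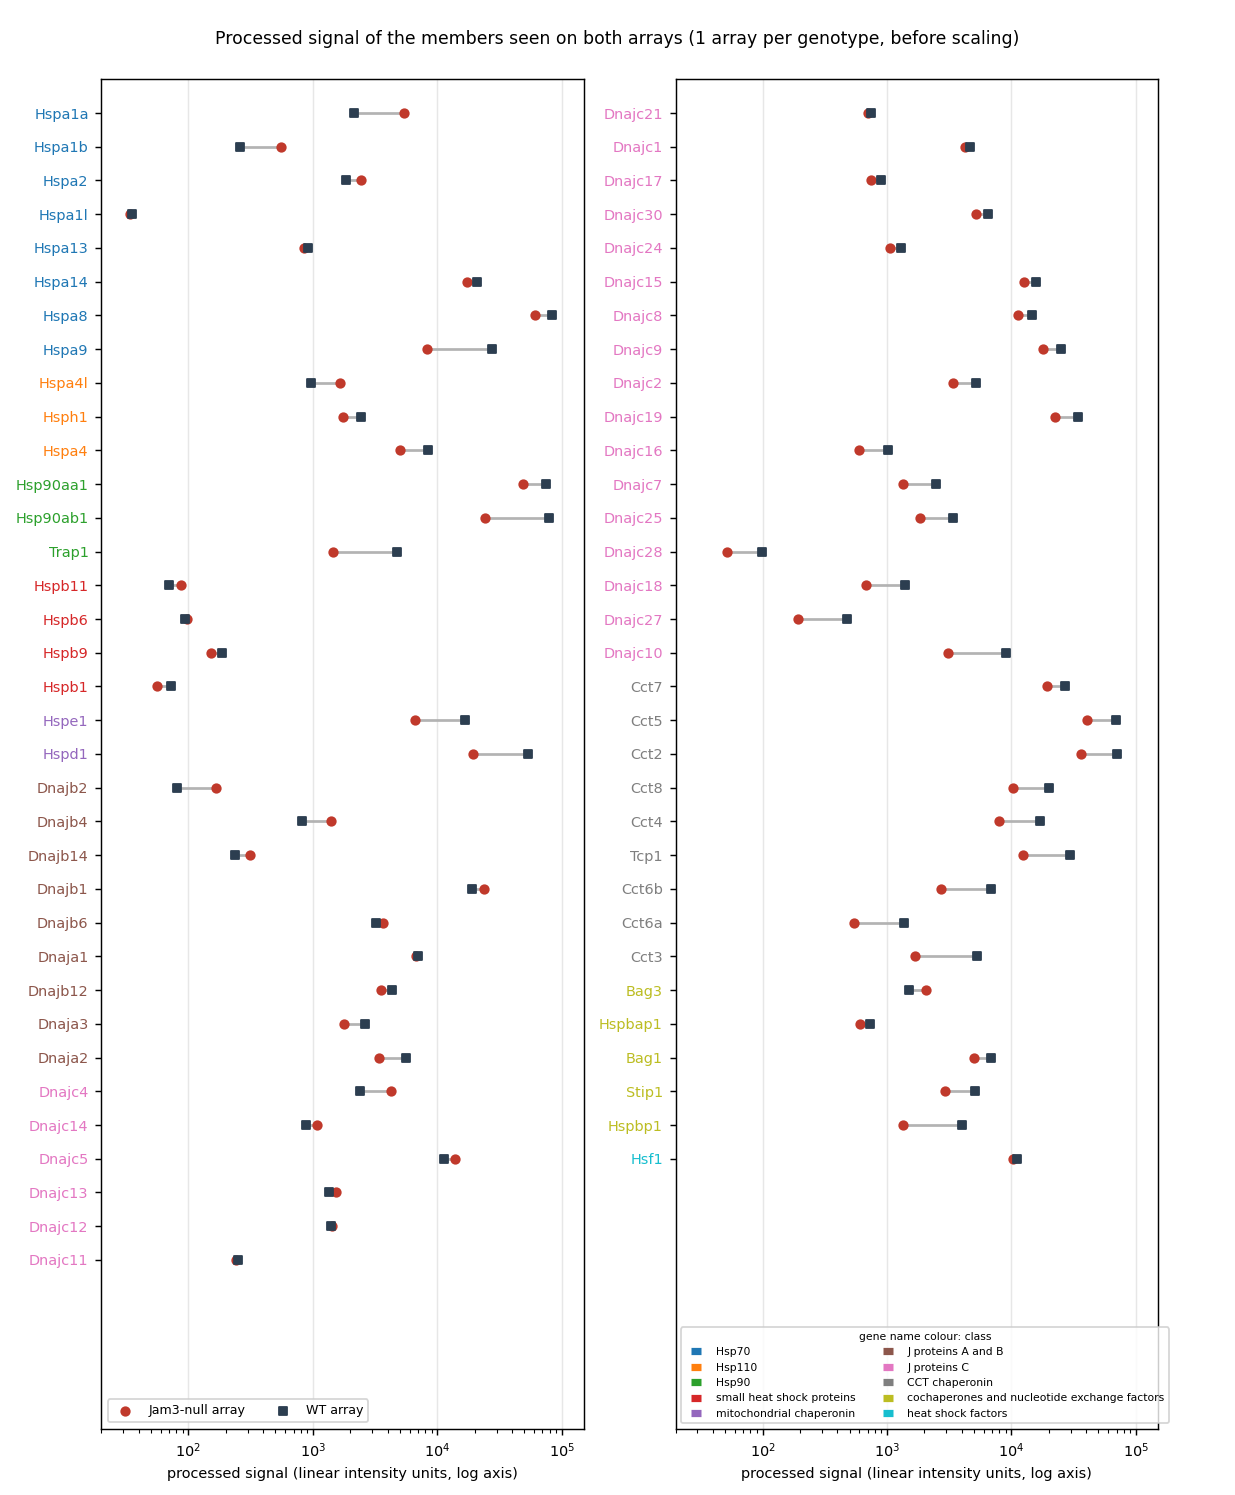
Processed signal of the 67 chaperone genes measured on both arrays, before scaling, on a log axis. For each gene the red circle is the Jam3-null array and the dark square is the WT array, joined by a line. Genes are grouped by class, and circles left of their squares had the lower signal on the Jam3-null array, as for 3 of 3 Hsp90 genes and 9 of 9 CCT genes.

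The plot of processed signals shows how the classes differed, and the plot of differences by class gives the same genes after scaling. Of 10 classes, 8 had a median below 0, with Hsp90 (-1.61), mitochondrial chaperonin (-1.31) and CCT (-0.99) the lowest. The J proteins A and B had the highest median at 0.27. The small heat shock proteins (-0.02) and the heat shock factors (-0.03) lay above the median of all genes. With cyclic loess their medians were 0.08 and 0.15, beside 0.06 over all measured genes. The value of the heat shock factors is that of Hsf1 alone, the only one measured on both arrays.

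**Figure D2:**
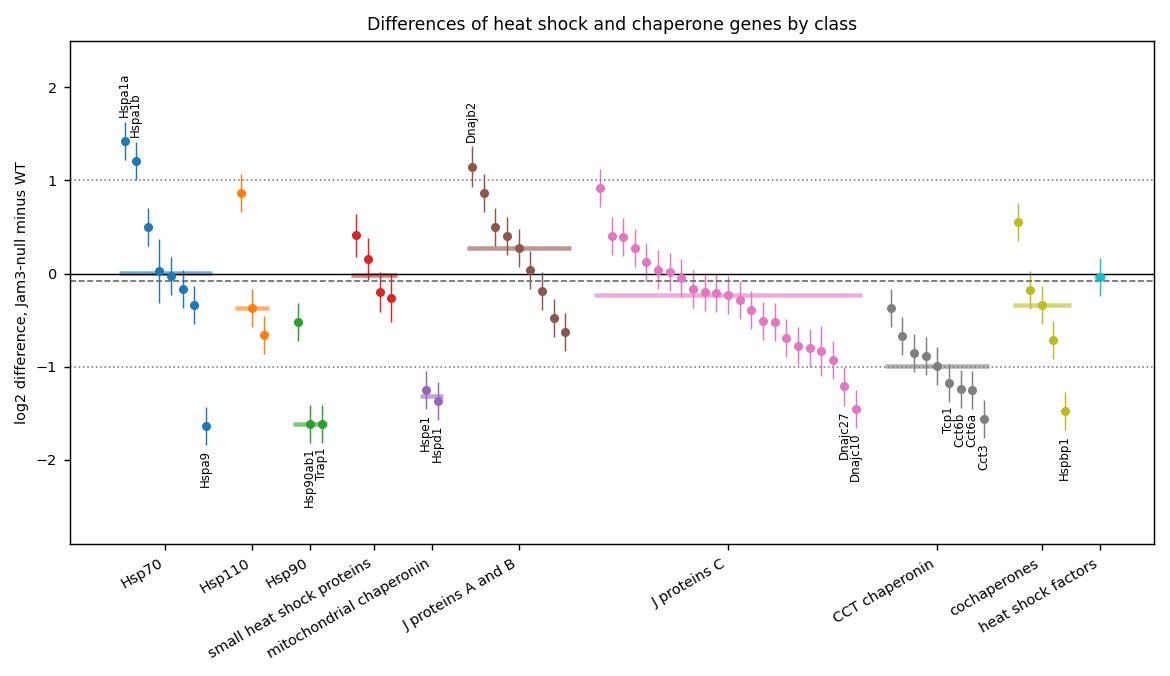
Log2 difference, Jam3-null minus WT, of each measured chaperone gene by class. Error bars are the measurement SD of the scanner software, short bars are class medians, the dashed line is the median of all measured genes (-0.07), and the dotted lines mark 2-fold. Genes past 2-fold are named.

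The Hsp70 class held 10 genes, of which 8 were measured on both arrays, and it was split, with 4 higher and 4 lower. The stress-inducible Hsp70 genes Hspa1a and Hspa1b were past 2-fold higher, and Hspa9 was past 2-fold lower. Hspa1a had a signal of 5372 in Jam3-null cells and 2141 in WT cells, a log2 difference of 1.42 (SD 0.20), or 2.68-fold higher. Its probe lies at chr17:35106766-35106825 (mm9), and its other probe gave 1.40. Hspa1b had 559 in Jam3-null cells and 259 in WT cells, a difference of 1.21 (SD 0.21), or 2.31-fold higher, at chr17:35094200-35094259. Its other probe gave 1.04. All 4 probes of the pair were higher on the Jam3-null array, but the genes are nearly identical in sequence, and signal of one may come from RNA of the other. Both windows of these genes shown above are likewise nearly identical.

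The constitutive Hsp70, Hspa8, had 61547 in Jam3-null cells and 82877 in WT cells, a difference of -0.33 (SD 0.20), and its other probe gave -0.84. Cyclic loess normalization brought the first value to -0.07. Hspa9, the mitochondrial Hsp70 that pulls proteins into the matrix and folds them there, had 8323 in Jam3-null cells and 27640.4 in WT cells. The difference was -1.64 (SD 0.20), or 3.11-fold lower, at chr18:35097674-35097733, and its other probe gave -1.40. No other measured member lay lower, although Trap1 and Hsp90ab1 (both -1.61) were within the measurement error of it. Hspa2, known best from testis, differed by 0.50, and the ribosome-associated Hspa14 by -0.17. Hspa13 differed by -0.03, and Hspa1l, another testis gene, by 0.03 with an SD of 0.34. The distant relatives Hspa12a and Hspa12b were seen on the WT array only, so faintly that no fold can be given.

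The Hsp110 class, which exchanges nucleotide on Hsp70, had 1 higher and 2 lower genes, none of them past 2-fold. Hspa4 had 5012 in Jam3-null cells and 8483 in WT cells, a difference of -0.66 (SD 0.20). Its probes disagreed, as 3 were lower and 1 was higher by 1.22, and with the mean of its 4 probes the difference was -0.07. Hspa4l was higher in 4 of 4 probes, with a signal of 1662 in Jam3-null cells and 976 in WT cells (difference 0.86), and with the mean of its probes it passed 2-fold at 1.08. Hsph1, the heat-inducible member, had 1756 in Jam3-null cells and 2423 in WT cells (difference -0.37).

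All 3 Hsp90 genes were lower on the Jam3-null array. Hsp90ab1, the constitutive cytosolic Hsp90, had 24019.9 in Jam3-null cells and 78464 in WT cells, a difference of -1.61 (SD 0.20), or 3.06-fold lower, at chr17:45705226-45705285. Its other probe gave -1.46. Trap1, the mitochondrial Hsp90 whose probe is shown above, had 1447 in Jam3-null cells and 4734 in WT cells, a difference of -1.61 (SD 0.20), or 3.06-fold lower. Hsp90aa1, the stress-inducible cytosolic form, had 48833 in Jam3-null cells and 74593 in WT cells, a difference of -0.51 (SD 0.20), which cyclic loess moved to -0.26. The constitutive and the inducible cytosolic Hsp90 were thus both lower, the constitutive by more, and the difference between them was not tested.

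Of the 8 small heat shock genes, which hold unfolded proteins without ATP, 4 were measured on both arrays, none past 1.5-fold in either direction. Hspb1, the most studied of them, had a signal of 56.2 in Jam3-null cells and 72.0 in WT cells, a difference of -0.26 (SD 0.26), which is about the size of its measurement error. Hspb11, which works in cilia, differed by 0.41 and Hspb6 by 0.16. Hspb9 had 153 in Jam3-null cells and 188 in WT cells, a difference of -0.20 (SD 0.21). Hspb3, a muscle protein, was well above background on the WT array only, with 5.39 in Jam3-null cells and 84.4 in WT cells, at least 3.05-fold lower. Hspb2 was seen on the WT array only, with no fold, and Hspb7 and Hspb8 on neither array.

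The mitochondrial chaperonin genes Hspd1 (Hsp60) and Hspe1 (Hsp10) were both past 2-fold lower on the Jam3-null array. Hspd1 had 19252 in Jam3-null cells and 53289.8 in WT cells, a difference of -1.37 (SD 0.20), or 2.59-fold lower, at chr1:55134829-55134888, and its other probe gave -1.51. Hspe1 had 6614 in Jam3-null cells and 16855 in WT cells, a difference of -1.25 (SD 0.20), or 2.38-fold lower, at chr1:55147922-55147981. These 2 genes share the promoter run printed above. Hspa9 and Trap1 were lower as well. Of 9 mitochondrial members, a group drawn up after the values were seen, 8 were lower, 4 of them past 2-fold, and the median was -0.52. The exception, Dnajc11, differed by 0.04. The group leaves out Dnajc4 (0.92) and Dnajc28 (-0.83), and its median describes only those 9.

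J proteins start the Hsp70 cycle and choose its clients. Of 15 in families A and B, 9 were measured, 6 higher and 3 lower, with a median of 0.27. Dnajb1, the heat-inducible partner of Hsp70, had 23630 in Jam3-null cells and 19041 in WT cells, a difference of 0.41 (SD 0.20), and its other probe gave 0.34. Dnaja1, a constitutive partner, had 6698 in Jam3-null cells and 6966 in WT cells (difference 0.04 after scaling). Its 3 probes lay between 0.01 and 0.09.

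Dnajb2, which binds ubiquitin, was the single J protein past 2-fold higher, with 167 in Jam3-null cells and 80.7 in WT cells. The difference was 1.15 (SD 0.22), or 2.21-fold higher, from 1 probe at chr1:75241802-75241861, and with normexp background correction it was 0.80, short of 2-fold. Dnajb4 (0.87), Dnajb14 (0.50) and Dnajb6 (0.27) were also higher, and in Dnajb6 1 of 3 probes went the other way. The other probes of Dnajb14 gave 0.80 and 1.64. Dnaja2 (-0.63), the mitochondrial Dnaja3 (-0.47) and Dnajb12 (-0.19) were lower. Dnaja4 was seen on the WT array only, with 6.10 in Jam3-null cells and 91.3 in WT cells, at least 3.30-fold lower. That bound rests on 1 probe, as the other Dnaja4 probe was below the background mark on both arrays. Dnajb13 and Dnajb5 were also seen on the WT array only, with bounds of -0.43 and -0.31 on the log2 scale, although another probe of Dnajb5 passed the mark in Jam3-null cells alone. Dnajb3, Dnajb7 and Dnajb8 were well above background on neither array. The class median was sensitive to dim genes: it was -0.07 with genes at their bound included and -0.19 with no filter on dim probes.

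Of 27 J proteins of family C, which are built on many plans around the J domain, 23 were measured, 7 higher and 16 lower, with a median of -0.23. Dnajc10, a disulphide reductase of the endoplasmic reticulum, had 3070 in Jam3-null cells and 8989 in WT cells, a difference of -1.45 (SD 0.20), or 2.74-fold lower, at chr2:80193629-80193688. All 4 of its probes were lower, the least by -0.87. Dnajc27, a small GTPase with a J domain, had 193 in Jam3-null cells and 477 in WT cells, a difference of -1.21 (SD 0.21), or 2.31-fold lower, at chr12:4110098-4110157. Dnajc18 followed at -0.93, and passed 2-fold with the mean of its probes (-1.18) and with spike-in scaling (-1.02). Next in size were Dnajc28 (-0.83), Dnajc25 (-0.80), Dnajc7 (-0.78) and Dnajc16 (-0.69). Dnajc19, a mitochondrial import protein, had 22298 in Jam3-null cells and 34223 in WT cells, a difference of -0.52 (SD 0.20).

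Dnajc2, which works at the ribosome, differed by -0.51, the histone chaperone Dnajc9 by -0.39 and Dnajc8 by -0.28. On the other side were Dnajc4 (0.92, and 1.06 with cyclic loess), Dnajc14 (0.41), the synaptic vesicle protein Dnajc5 (0.39) and the endosome protein Dnajc13 (0.28). The remaining 8 measured genes of the family lay between -0.23 (Dnajc15) and 0.13 (Dnajc12). Dnajc6, which uncoats clathrin vesicles, was the only member seen on the Jam3-null array alone, with 50.1 in Jam3-null cells and 3.29 in WT cells, at least 3.47-fold higher. Dnajc22 was seen on the WT array only, and Dnajc5b and Dnajc5g on neither array.

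The CCT ring is built from 8 different subunits, and all 8 were lower on the Jam3-null array, as was the ninth measured gene, Cct6b. Cct3 had 1683 in Jam3-null cells and 5323 in WT cells, a difference of -1.56 (SD 0.20), or 2.96-fold lower, at chr3:88115634-88115693. Its second, dimmer probe gave -0.41, and the mean of both was -0.99. Cct6a had 545 in Jam3-null cells and 1381 in WT cells, a difference of -1.25 (SD 0.20), or 2.37-fold lower, at chr5:130297754-130297813. Tcp1 had 12362 in Jam3-null cells and 29806 in WT cells, a difference of -1.17 (SD 0.20), or 2.26-fold lower, at chr17:13116096-13116155, and with cyclic loess -0.97, short of 2-fold. With quantile normalization it was -0.998.

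Cct4 was just short of 2-fold, with 7970.2 in Jam3-null cells and 16926 in WT cells (difference -0.99), and both its probes were lower. It passed 2-fold under 4 alternative settings, with values of -1.01 to -1.08. Cct8, whose probe is shown above, had 10207 in Jam3-null cells and 20077 in WT cells (-0.88). Cct2 had 36552 in Jam3-null cells and 70335 in WT cells (-0.85). All 3 were thus lower but short of 2-fold. Cct5 had 40459.6 in Jam3-null cells and 68927 in WT cells (-0.67). Cct7 had the smallest difference of the ring, with 19393 in Jam3-null cells and 26837 in WT cells (-0.37). The ring members therefore differed by -0.37 to -1.56, with a median of -0.93, and 7 of 8 were past 1.5-fold lower, beside 20.3% of all measured genes. Cct6b, a testis form of Cct6a, had 2729 in Jam3-null cells and 6895 in WT cells, a difference of -1.24 (SD 0.20), or 2.36-fold lower, at chr11:82532872-82532931. Cct8l1 was well above background on neither array.

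Of the 5 remaining partners of Hsp70 and Hsp90, 1 was higher and 4 were lower. Hspbp1, a nucleotide exchange factor of Hsp70, had 1351 in Jam3-null cells and 4019 in WT cells, a difference of -1.48 (SD 0.20), or 2.78-fold lower, at chr7:4612352-4612411, and its other probe gave -1.53. Stip1, which carries clients between Hsp70 and Hsp90, had 2924 in Jam3-null cells and 5134 in WT cells (-0.72). Bag1, another nucleotide exchange factor, had 5033 in Jam3-null cells and 6823 in WT cells (-0.34). Bag3, which is stress-inducible and links Hsp70 to autophagy, had 2070 in Jam3-null cells and 1512 in WT cells (0.55), but its dimmer probe gave -0.07. Hspbap1, which binds a small heat shock protein, differed by -0.18.

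Hsf1, the main heat shock factor, had 10201 in Jam3-null cells and 11156 in WT cells, a difference of -0.03 (SD 0.20). Its 3 probes lay between -0.11 and -0.03, and cyclic loess gave 0.15. Hsf2 was below the background mark on both arrays.

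Where a member had several probes, these mostly kept one direction, as the plot of probes shows. Of 34 members with at least 2 measured probes, 28 had all probes on one side of 0 and 6 did not (Hspa13, Hspa4, Dnajb6, Dnajc1, Dnajc16 and Bag3), beside 25.1% of such genes over the whole array. All 9 members past 2-fold that had several probes kept one sign, but no share over all genes past 2-fold was taken to set beside this. Another 37 members had a single probe.

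Groups drawn up after the values were seen sort the members by where they work. The 8 CCT ring subunits and 9 mitochondrial members together had a median of -0.88, with 16 of 17 lower and 7 past 2-fold lower. The 50 other measured members had a median of -0.17, with 30 lower and 20 higher, 5 of them past 2-fold lower and 3 past 2-fold higher. Dnajc4 (0.92) and Dnajc28 (-0.83) were counted with these others. Over all measured genes 55.2% were lower, 8.64% past 2-fold lower and 10.3% past 2-fold higher. The 6 members grouped as endoplasmic reticulum had a median of -0.04, with 4 lower and 2 higher. With cyclic loess the median was 0.08, beside 0.06 over all measured genes, and Dnajc10 alone passed 2-fold. This group leaves out Dnajc18 (-0.93), Dnajc25 (-0.80) and Dnajc16 (-0.69), which also encode proteins of the endoplasmic reticulum and were lower. Its median therefore describes only those 6.

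**Figure D3:**
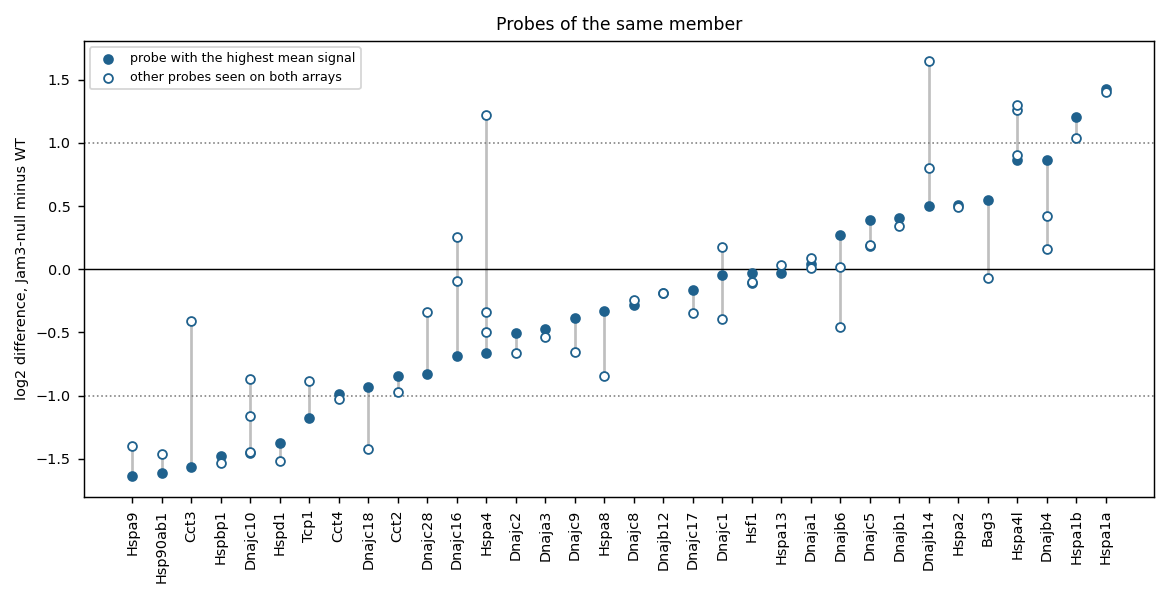
Log2 difference, Jam3-null minus WT, of every measured probe of the 34 chaperone genes with at least 2 of them. Filled points are the probe with the highest mean signal, which gave the value of the gene, the solid line is 0 and the dotted lines mark 2-fold. The spread of the points of a gene is the disagreement between its probes, widest in Hspa4, from -0.66 to 1.22.

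Of the 85 members, 9 (Hspb7, Hspb8, Dnajb3, Dnajb7, Dnajb8, Dnajc5b, Dnajc5g, Cct8l1 and Hsf2) were well above background on neither array. Another 8 were so on the WT array only, beside 8.99% of all genes, and 1 on the Jam3-null array only, beside 1.86%. Only Hspb3 and Dnaja4 of the WT-only genes had a bound past 2-fold, beside 16.1% of all such genes. The bound of Dnajc6 stands beside 97.0% of genes seen on the Jam3-null array only.

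The heat shock element was searched in the promoter windows on both strands, as GAANNTTCNNGAA for 3 units and as GAANNTTC or TTCNNGAA for 2, the shorter motifs being contained in the longer. Windows were found for 69 of the 85 members. The longer motif was in 4 of them (5.80%), beside 0.662% of all 27025 genes with a window. The 4 were Hspd1 (-1.37), Hspe1 (-1.25), Hsph1 (-0.37) and Dnajb6 (0.27). A shorter motif was in 21 members (30.4%), beside 17.0% of genes, and 9 of the 16 such members measured on both arrays were lower, beside the 55.2% of all measured genes. The CCAAT box was in 27 members (39.1%), beside 41.1% of genes. A match shows only that these letters are in the window, and elements with changed letters were not searched for.

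Other genes of the pathway, outside the 85, were compared in the same way. Over all measured genes 55.2% were lower and 44.8% higher, with 8.64% past 2-fold lower and 10.3% past 2-fold higher. Among 21 further cochaperones of Hsp70 and Hsp90, 15 were lower and 6 higher, with a median of -0.27. Past 2-fold lower were Bag2 (-2.16), Fkbp4 (-1.45) and Ptges3 (-1.01), and past 2-fold higher was Unc45a (1.24). Fkbp4 and Ptges3 work with Hsp90 on steroid receptors, Bag2 is a nucleotide exchange factor and Unc45a is a myosin chaperone. Of 9 prefoldin subunits and CCT helpers, which bring clients to the ring, 6 were lower and none passed 2-fold, with a median of -0.34. Vbp1 (-0.47), Txndc9 (-0.46) and Pfdn6 (-0.42) were furthest from 0.

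All 10 mitochondrial import and protease genes were lower, beside 55.2% of all measured genes, with a median of -0.52 and none past 2-fold. Hscb (-0.997), Clpp (-0.80) and Timm44 (-0.58) were furthest from 0. The 14 chaperones of the endoplasmic reticulum had a median of -0.01, with Calr (-1.08) past 2-fold lower Dnajb9 (1.10) past 2-fold higher and Canx (-0.62) next in size. Heat-induced genes outside the chaperones lay the other way: 9 of 9 measured were higher, beside 44.8% of all measured genes. Past 2-fold higher were 5 of them, beside 10.3%, and the median was 1.15. Those 5 were Tcp11l2 (1.87), Ier5 (1.53), Hmox1 (1.49), Gadd45b (1.22) and Rgs2 (1.15).

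**Figure D4:**
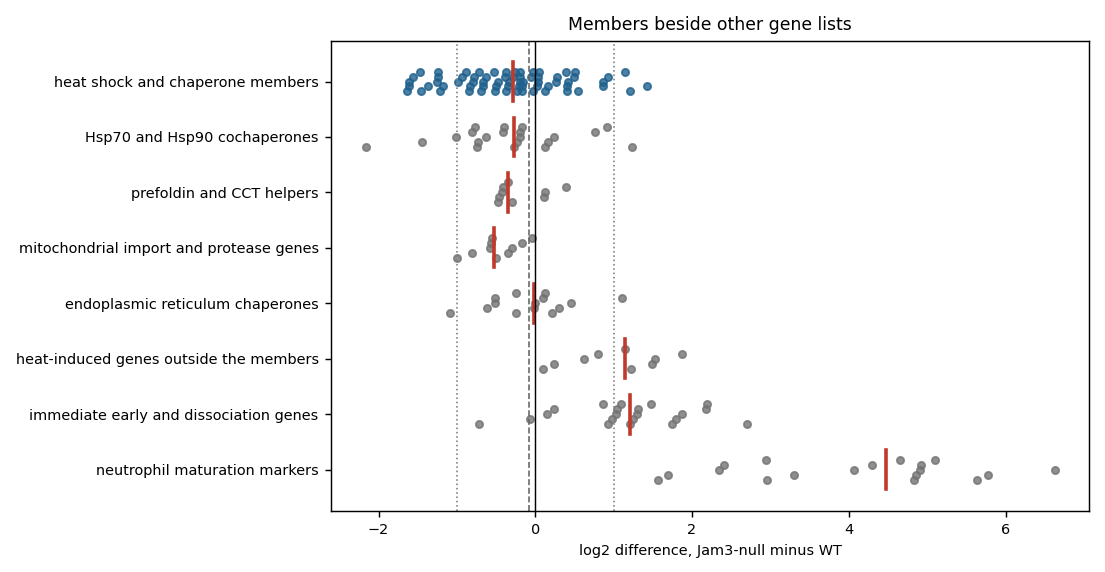
Log2 difference, Jam3-null minus WT, of the chaperone genes and of 7 other gene lists. Each point is a gene measured on both arrays, red bars are medians, and the dashed line is the median of all measured genes (-0.07). The medians of heat-induced genes outside the chaperones (1.15) and of immediate early and dissociation genes (1.21) lie to the right of 0. That of mitochondrial import and protease genes (-0.52) lies to the left.

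A list of immediate early genes, known to be induced within minutes of a stimulus, and of genes known from cell dissociation was also mostly higher. Egr2 (-0.72) and Egr1 (-0.07) lay below 0, and 19 of 21 genes lay above 0, beside 44.8% of all measured genes. Past 2-fold higher were 14 of them, beside 10.3%. The median was 1.21, and Cebpd (2.70), Atf3 (2.19) and Klf6 (2.18) were furthest. The other 11 past 2-fold lay between 1.03 (Jun) and 1.87 (Btg2). The summed signal of the list was 297940 in Jam3-null cells and 141141 in WT cells. The neutrophil markers were higher, as given above, with Fcnb (6.63), Stfa1 (5.77) and Itgb2l (5.64) furthest. The mast cell, basophil and eosinophil markers had a summed signal of 7000 in Jam3-null cells and 32013 in WT cells, with Ms4a2 and Il5ra below the background mark on both. Of these, Cpa3 (-3.60), Prg2 (-2.59), Hdc (-2.26), Epx (-1.24) and Mcpt8 (-1.18) were past 2-fold lower and Siglecf (1.10) was past 2-fold higher. The part of these in the chaperone differences was not tested.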

How the data were processed

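Total RNA of sorted cells was amplified and Cy3-labelled, per the labels' protocols. The deposited intensity values came, per the file headers, from Agilent Feature Extraction 10.7.3.1 (10.7 in the submitters' processing notes), and the processed intensity is background-subtracted and not normalized between arrays. The authors' value table holds log2 values with a normalization not given in the sources used here. It followed the log2 processed signals (Pearson r over probes 0.999 on each array, both column medians 5.66) and served as an alternative.

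Flagged spots (151 Jam3-null, 163 WT) were left out, 0 non-control spots were saturated, and the slide and the scan were shared by both arrays. Log2 processed signals minus the 75th percentile of the array (668 on the Jam3-null array, 714 on the WT array) were averaged per probe, and the probe with the highest mean signal gave the value of a gene. A gene was compared when well above background on both arrays. A gene seen on 1 array got a bound in place of a fold, its bright value over the dim array's floor (the lowest signal there that was well above background, or the gene's own signal if higher). Repeat spots of 126 probes had a median SD of 0.042 in the log2 difference. Accessions were matched to a RefSeq table (GRCm38.p6), which held all 85 members, and coordinates of probes are mm9.

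The members and lists were chosen with earlier results of these data known, and the mitochondrial, endoplasmic reticulum and CCT ring groups after the values were seen. Full values are given for the central chaperones, members past 2-fold, members seen on 1 array with a bound past 2-fold and the member of each class with the highest probe signal, which serves as a choice and not as a comparison of levels. In other lists the rule names genes past 2-fold and the 3 furthest from 0. Immediate early and dissociation genes and neutrophil markers past 2-fold beyond those 3 are given by count and range. The gene-level steps were tested on simulated data. R 4.3.3, limma 3.58.1, Python 3.11.15, numpy 2.4.6 and pandas 2.3.3 were used. The alternatives were normexp (offset 50), quantile, cyclic loess, median and spike-in scaling, the authors' table, 3 other filters on dim genes, the mean of probes, and thresholds of 1.5-fold and 3-fold.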

Additional observations from a re-analysis of the deposited data

How the results depend on the processing

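Over 10 alternative settings the median difference of the members lay between -0.38 and -0.12, below the median of all genes in each. The all-gene median moved by over 0.1 under cyclic loess (by 0.13) and with no filter on dim probes (by 0.22). Members at least 2-fold lower numbered 10 to 18, and members at least 2-fold higher 1 to 4, the 1 being among genes above the median signal. At 1.5-fold there were 24 lower and 6 higher, and at 3-fold 3 lower and 0 higher. All 8 CCT ring subunits were lower under 9 alternatives, and all 7 left under the filter on genes above the median signal. The Hsp110 median was -0.068 with the mean of probes. Under cyclic loess the Hsp90 median was -1.37 and the mitochondrial chaperonin median -1.11. The median of J proteins A and B was 0.040 among genes above the median signal, 0.045 with the mean of probes, -0.075 with genes at their bound and -0.19 with no filter. With no filter the heat shock factors had a median of -0.59, which takes in the unmeasured Hsf2. Of 255 values of 26 named members, 243 moved by less than their measurement SD, 12 moved by more, and no value past 2-fold changed sign. Under at least 1 setting Dnajb2, Tcp1 and Cct3 fell short of 2-fold, and Cct4, Dnajc18, Dnajc4 (1.06 with cyclic loess, 1.01 in the authors' deposited table) and Hspa4l passed it. The causes of these moves were not tested. No paired analysis was possible because each genotype had 1 array and the labels carry no replicate numbers. Dim genes limit the precision, with a measurement SD of up to 0.34 among the members against 0.20 for bright ones.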

Other observations

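Markers of other cell types were compared outside the chaperones. Erythroid markers had a summed signal of 944 in Jam3-null cells and 403 in WT cells, with Alas2 and Ahsp seen in Jam3-null cells only and Hba-a1 past 2-fold higher (1.73). Among megakaryocyte markers measured on both arrays, Gp9 (2.08), Vwf (1.96) and Gp1bb (0.65) were higher and Itgb3 (-1.68) was lower. B cell markers summed to 7953 in Jam3-null cells and 13421 in WT cells, mostly from Cd79b (-0.44). Vpreb1, a part of the pre-B cell receptor, had the largest difference of that list, with a signal of 115 in Jam3-null cells and 2069 in WT cells (-4.08), while Cd79a and Pax5 were below the background mark on both arrays. T and NK cell markers summed to 15463 in Jam3-null cells and 4794 in WT cells, mostly from Nkg7 (1.84). The other 3 measured on both arrays were lower, namely Lck (-1.03), Cd3g (-0.17) and Cd3e (-0.11). Cd3d and Klrb1c were seen in Jam3-null cells only, with bounds of 2.30 and 1.88 on the log2 scale. Cd8a was below the background mark on both arrays. Dendritic cell markers summed to 3073 in Jam3-null cells and 17140.0 in WT cells, mostly from Tcf4 (-2.72), and H2-Ab1 (-1.46) and Itgax (-1.19) were also past 2-fold lower.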
